A study of Sus scrofa with 16 samples.

Results

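OAZ3, the gene for ornithine decarboxylase antizyme 3, was followed in pig liver together with OAZ1, OAZ2, ODC1, SAT1, AMD1, SRM and SMS, the other core genes of polyamine metabolism. All probes of these 8 genes were taken by symbol. The array held named probes for 7 of them, 21 of its 43603 probes in all, among 5254 gene symbols, and SRM had no probe. OAZ3 was chosen because its level differed between the lines in these same data, so that difference is given as a description with no test. The samples were livers of 16 pigs (Sus scrofa) of 20 kg body weight, 8 from a low-RFI line (RFIneg) and 8 from a high-RFI line (RFIpl), all fed ad libitum. RFI, residual feed intake, is the feed a pig eats above or below the amount that its growth and upkeep predict, so low-RFI pigs are the more efficient eaters. Total RNA of each liver was labelled with Cy3 and read on its own 1-colour array. With 1 line of each kind, selection on RFI cannot be told apart from any other difference between these lines.

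Polyamines (putrescine, spermidine and spermine) are small, positively charged molecules that bind nucleic acids and that growing cells need. Ornithine decarboxylase, the product of ODC1, makes putrescine from ornithine and is the regulated entry to the pathway. Antizymes bind this enzyme and stop it, and the antizyme made from OAZ1 delivers it to the proteasome without ubiquitin. Antizymes also curb polyamine uptake. Their translation needs a ribosomal frameshift that polyamines themselves promote. AMD1 encodes S-adenosylmethionine decarboxylase, which supplies the aminopropyl group, SRM and SMS encode the synthases of spermidine and spermine, and SAT1 acetylates both for export or back-conversion. In human and mouse, OAZ1 and OAZ2 are expressed in many tissues, and OAZ3 is known as the antizyme of testis germ cells late in sperm formation.

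OAZ3 was read by 2 probes of 60 bases that lie in different places of its transcript. They are shown because the low levels in part of the low-RFI pigs rest on them, together with an unnamed probe that followed the same pattern. The sequences are those of the deposited array files, 5′ to 3′, with no letters in capitals.
OAZ3 probe A_72_P437459: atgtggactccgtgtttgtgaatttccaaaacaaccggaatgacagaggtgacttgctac
OAZ3 probe A_72_P619999: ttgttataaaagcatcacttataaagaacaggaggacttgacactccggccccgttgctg
Unnamed probe A_72_P008606: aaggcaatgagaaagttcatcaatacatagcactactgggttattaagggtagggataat
Per the files, the probes start at base 451, base 88 and base 686 of the transcripts they were designed on. None of the 43603 probes other than itself shared a run of 16 bases with either OAZ3 probe, on either strand. The files give no genome position for any of the 21 member probes.

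Each of 4 slides carried 2 pigs of each line. Between 28579 and 34983 probes of an array exceeded its background clearly, with local background medians of 29 to 40 and 75th percentiles of processed signal of 320.0 to 508 intensity units. Repeated probes had a median coefficient of variation of 6.97 ± 0.50% on low-RFI arrays and 8.04 ± 0.66% on high-RFI arrays (SD, n = 8 each), and the scanner software marked 0 low-RFI and 5 high-RFI arrays for noise. A level here is the log2 signal minus the array's 75th percentile, and differences are low-RFI minus high-RFI on that log2 scale. Of the hepatocyte markers, 8 of 12 had a named probe, all well above background on all 16 arrays, with means from 4.07 to 9.32. In bulk liver, fewer cells of a type and less RNA per cell cannot be told apart.

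OAZ3 had a lower mean in low-RFI livers, with 6 of the 8 low-RFI pigs at low levels and the other 2 as high as the high-RFI pigs. On probe A_72_P437459 the low-RFI pigs had a lowest level of -3.94, a median of -2.15 and a highest of 0.62, against -0.31, 0.46 and 0.65 in high-RFI pigs. In signal, this was 27.7, 91.5 and 606 intensity units in low-RFI and 288, 564 and 728 in high-RFI pigs, and the probe was well above background on every array. The low-RFI pigs 1 to 5 were at -2.15, -3.94, -2.14, -2.31 and -2.58, and pig 7 was at -2.02. The low-RFI pigs 6 and 8, at 0.17 and 0.62, lay inside the high-RFI range, so the lines overlapped. The widest gap between neighbouring pigs was 1.71, from -2.02 to -0.31, with 6 low-RFI and 0 high-RFI pigs below it. The lines averaged -1.79 ± 1.49 in low-RFI and 0.25 ± 0.43 in high-RFI pigs (SD, n = 8 each), a difference of -2.05 (SE 0.496), or 4.14-fold lower in low-RFI. After normexp background correction the difference was -1.40 and the widest gap narrowed to 0.76. Under the other 3 scalings tried the gap was 1.61 to 1.77. The same 6 pigs were lowest under normexp and under those 3.

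The other OAZ3 probe, A_72_P619999, separated the same pigs. The low-RFI pigs had a lowest level of -2.92, a median of -2.68 and a highest of -0.99, against -1.73, -1.03 and -0.91 in high-RFI pigs. Low-RFI pigs 6 and 8, at -1.06 and -0.99, were again inside the high-RFI range, and the other 6 low-RFI pigs were below every high-RFI pig. The gap was narrower here, 0.558, and the lines averaged -2.28 ± 0.80 in low-RFI and -1.20 ± 0.32 in high-RFI pigs (SD, n = 8 each). The difference was -1.07 (SE 0.280). Its signal was 56.3 to 199 intensity units in low-RFI pigs and 123 to 240 in high-RFI pigs, and its difference was -0.57 after normexp correction.

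**Figure D1:**
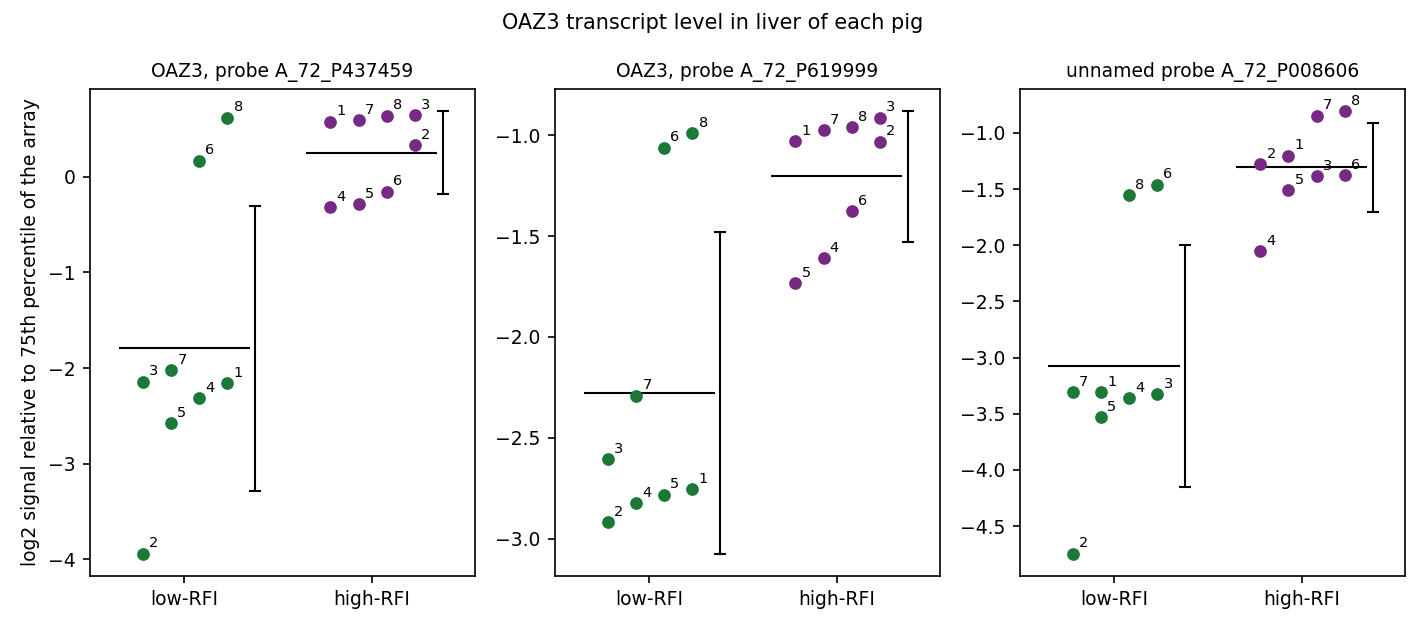
Level of OAZ3 in each pig on its 2 probes and on the unnamed probe A_72_P008606, as log2 signal relative to the array's 75th percentile (y axis), for 8 low-RFI pigs (green, left) and 8 high-RFI pigs (purple, right), with pig numbers beside the points. Horizontal lines are line means and bars are ± SD (n = 8 each). On all 3 probes low-RFI pigs 6 and 8 sit among the high-RFI pigs and the other 6 low-RFI pigs sit below them.

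Within each slide, the OAZ3 mean of the low-RFI pigs was below that of the high-RFI pigs. On slides 1 to 4 the difference of probe A_72_P437459 was -3.19, -2.39, -1.13 and -1.49, and that of A_72_P619999 was -1.40, -1.38, -0.54 and -0.97, with 2 pigs of each line per slide. The low-RFI pigs on slide 3 were pigs 3 and 6, at -2.14 and 0.17 on A_72_P437459. Those on slide 4 were pigs 4 and 8, at -2.31 and 0.62, while slides 1 and 2 held only low-RFI pigs with low OAZ3. The numbers the submitters gave the samples fall into 2 separate runs, with pigs 1 to 4 of each line in run 1 and pigs 5 to 8 in run 2, and the labels do not say what the runs stand for. The OAZ3 difference on A_72_P437459 was -2.95 in run 1, where all 4 low-RFI pigs were low, and -1.15 in run 2, where low-RFI pigs 5 and 7 were low and low-RFI pigs 6 and 8 were not. Leaving out each pig in turn moved it between -2.39, without low-RFI pig 8, and -1.74, without low-RFI pig 2.

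Pooled over the lines, OAZ3 on its main probe varied more between pigs of the same line than most transcripts. Most of this spread was in the low-RFI line, with an SD of 1.49 against 0.43 in the high-RFI line. The pooled within-line SD of OAZ3 on A_72_P437459 was 1.10, and 98.5% of the 30099 tested probes had a smaller one. A gap between neighbouring pigs at least as wide as on this probe was present in 0.887% of tested probes. On A_72_P619999 the within-line SD was 0.607, larger than in 88.9% of tested probes, and a gap as wide as its 0.558 was present in 18.8%. These values share their pigs with the difference for which OAZ3 was chosen.

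The probe most like OAZ3 among the other 30098 tested probes was A_72_P008606, which the files describe as unknown and which was singled out after its values were seen. Its correlation with A_72_P437459 over the 16 pigs, after subtracting line means, was 0.969, and it was 0.907 without low-RFI pigs 6 and 8. The corresponding value of OAZ3's own A_72_P619999 was 0.943, and 0.745 without those 2 pigs. Low-RFI pig 2 stayed in and stood apart, at -3.94 on A_72_P437459 and -4.74 on the unnamed probe. The next lowest, low-RFI pig 5, was at -2.58 and -3.53. No correlation was computed without pig 2. OAZ3 spread mostly within the low-RFI line, where it fell into separate clusters, so these correlations rest mainly on the low-RFI pigs. The unnamed probe had a lowest level of -4.74, a median of -3.32 and a highest of -1.46 in low-RFI pigs, against -2.05, -1.33 and -0.81 in high-RFI pigs. The same 6 low-RFI pigs were below every high-RFI pig, with a gap of 1.25. Its line difference was -1.77 (SE 0.371), given as a description because the probe was picked for its likeness to OAZ3. No gene name is given to it here, and it shared no run of 16 bases with an OAZ3 probe.

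Among 4425 other named genes, those whose levels went most with OAZ3 within the lines were HACD3 (r = 0.857), SCARB1 (0.852), HSD17B8 (0.835), NEURL2 (0.823) and TCTN1 (0.820), each over 16 pigs that share their arrays. SCARB1 encodes the receptor through which liver takes up cholesterol from HDL, and HACD3 a dehydratase of long-chain fatty acid synthesis. Without low-RFI pigs 6 and 8 these values were 0.577, 0.633, 0.711, 0.519 and 0.813. The genes that went most against OAZ3 were PTPN1 (r = -0.878), S100A12 (-0.875), RIPK1 (-0.872), CCM2 (-0.860) and SUSD6 (-0.854). PTPN1 encodes a tyrosine phosphatase that acts on the insulin receptor, S100A12 a calcium-binding protein of granulocytes, and RIPK1 a kinase of cell death and inflammatory signalling. Without the same 2 pigs they were -0.846, -0.719, -0.854, -0.760 and -0.502. Low-RFI pig 2, which had the lowest OAZ3, stayed in all these values. Over the 16 pigs with no subtraction of line means, the values of the first 5 genes were 0.485, 0.615, 0.416, 0.362 and 0.651, and those of the other 5 were -0.691, -0.506, -0.675, -0.387 and -0.494. None of these 10 genes was called between the lines (limma adjusted p of 0.979 to 0.998): SCARB1 averaged 6.27 ± 0.27 in low-RFI and 6.28 ± 0.09 in high-RFI pigs, and PTPN1 -0.35 ± 0.35 and -0.41 ± 0.25 (SD, n = 8 each). They were ranked on these values, so the correlations carry no test.

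In the RefSeq gene table of assembly Sscrofa11.1, which need not be the build the array was designed on, the genes beside OAZ3 are TDRKH and MRPL9, and MRPL9 overlaps OAZ3. Neither had a named probe. S100A12 is on the same chromosome, with 43 genes between them.

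Testis germ cell markers, listed because OAZ3 is a germ cell gene in human and mouse, were mostly not well above background. Of 16 listed, 11 had a named probe and 4 were well above background on all arrays, namely PRM1, TNP2, ODF2 and ACRV1, while ODF1 and PGK2 were above it on 0 of 16. The 4 were not called (limma, adjusted p of 0.05 as the threshold), and the summed level of the 11 on a linear scale, as multiples of the array's 75th percentile, was 0.440 to 0.594 in low-RFI pigs and 0.402 to 0.748 in high-RFI pigs. ODF2 averaged -2.39 ± 0.22 in low-RFI and -2.36 ± 0.17 in high-RFI pigs (SD, n = 8 each). No probe's level was set against that of OAZ3, and the part of germ cell transcripts in the OAZ3 levels was not tested.

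For the other members the line comparison can be tested, since only OAZ3 was chosen for it. None of the 18 tested probes of OAZ1, OAZ2, ODC1, SAT1, AMD1 and SMS was called, where called means an adjusted p under the threshold of 0.05 in limma over all tested probes. Over all 30099 tested probes 3 were called (0.00997%), 0 higher and 3 lower in low-RFI, and no OAZ3 probe was among them. At an unadjusted p under 0.05 there were 0 of the 18 and 1640 of all tested probes (5.45%). The lines overlapped on all 18, and they did not overlap on 13 of all tested probes (0.0432%). Of the 18, 14 were higher and 4 lower in low-RFI, with a median difference of 0.07, against 49.7% higher and a median of -0.0012 over all tested probes. Several of the 18 overlap in sequence and all share the same pigs, so they are not independent. Under the other 4 scalings 13 or 14 of the 18 were higher, with medians of 0.03 to 0.11, while the median of all tested probes was 0.09 after normexp and 0.01 to 0.03 in the other 3. Of all tested probes, 68.8% were higher after normexp, 58.5% after median, 52.9% after quantile and 51.8% after cyclic loess scaling.

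**Figure D2:**
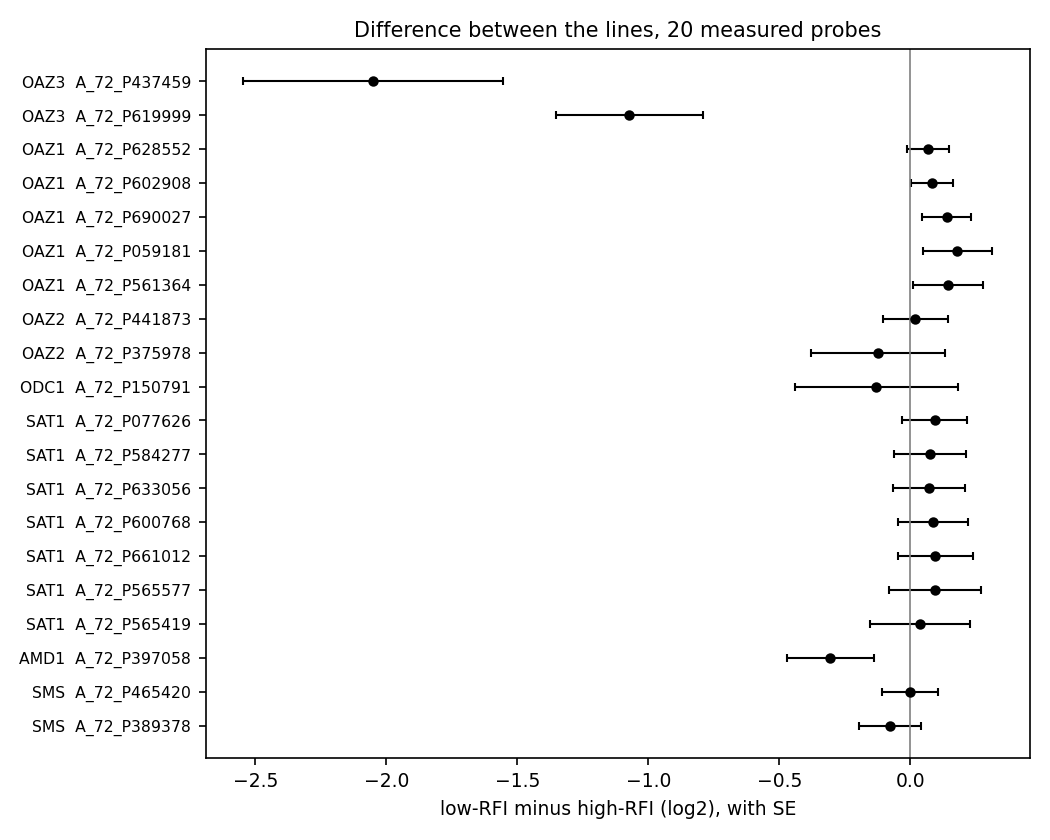
Difference between the lines, low-RFI minus high-RFI, in log2 units (x axis) for the 20 tested probes of 7 polyamine genes (y axis); points are differences of line means and bars are ± SE from limma (n = 8 pigs per line). The 2 OAZ3 probes, at -2.05 and -1.07, stand left of the other 18, which lie between -0.30 and 0.18.

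OAZ1, the antizyme of most tissues, was well above background on all 5 of its probes, with levels from 3.81 upwards. On A_72_P628552 the low-RFI pigs had a lowest level of 7.56, a median of 7.63 and a highest of 7.82, against 7.41, 7.62 and 7.71 in high-RFI pigs. The lines overlapped, with a difference of 0.07 (SE 0.081, limma adjusted p = 0.983) and a 95% interval of -0.10 to 0.24. The within-line SD of this probe was 0.109, and 0.535% of tested probes had a smaller one. It was larger on A_72_P059181 and A_72_P561364, at 0.259 and 0.260, with smaller SDs in 31.2% and 31.6% of tested probes. The 5 differences ran from 0.07 to 0.18. High-RFI pig 6 was lowest on all 5 probes, and its array had the lowest median correlation with the others (0.971). Without that pig the difference on A_72_P628552 was 0.04. The 5 probes amount to 3 stretches of transcript, because A_72_P059181 and A_72_P561364 share 47 bases and A_72_P628552 and A_72_P602908 share 30.

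A pair of overlapping OAZ1 probes has a partner on the opposite strand. A_72_P192031, which the files describe as a bovine antizyme sequence and which falls outside the symbol rule, is complementary to A_72_P561364 over 32 bases and to A_72_P059181 over 39. The 39 bases are marked by capitals in both sequences below, each written 5′ to 3′.
OAZ1 probe A_72_P059181: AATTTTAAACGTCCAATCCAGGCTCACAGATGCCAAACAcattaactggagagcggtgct
Opposite-strand probe A_72_P192031: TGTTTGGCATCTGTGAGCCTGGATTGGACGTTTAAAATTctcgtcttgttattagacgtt
The opposite-strand probe was above background on all arrays and averaged -1.16 ± 0.19 in low-RFI and -1.18 ± 0.21 in high-RFI pigs (SD, n = 8 each), a difference of 0.02 (SE 0.111). A_72_P059181 itself averaged 4.73 ± 0.19 in low-RFI and 4.55 ± 0.32 in high-RFI pigs, a difference of 0.18 (SE 0.133, limma adjusted p = 0.979).

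OAZ2, the third antizyme on the array, did not pass the test on either probe. On A_72_P441873 the low-RFI pigs had a lowest level of -1.74, a median of -1.55 and a highest of -1.16, against -1.89, -1.35 and -1.27 in high-RFI pigs. The lines overlapped throughout, and the difference was 0.02 (SE 0.124, limma adjusted p = 0.998, 95% interval -0.24 to 0.28). Its second probe, A_72_P375978, was well above background in only 5 low-RFI and 6 high-RFI pigs and differed by -0.12 (SE 0.256). The 95% intervals of A_72_P628552 for OAZ1 and A_72_P441873 for OAZ2 reached no lower than -0.10 and -0.24. That of the dim OAZ2 probe A_72_P375978 was wider and reached -0.66. The 2 OAZ3 probes differed by -2.05 and -1.07. A test of OAZ3 against OAZ1 or OAZ2 was not made, since OAZ3 was picked on this contrast.

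ODC1, the target enzyme of the antizymes, varied widely within both lines and was read by a single probe, shown because it is the only reading of the pathway's entry enzyme.
ODC1 probe A_72_P150791: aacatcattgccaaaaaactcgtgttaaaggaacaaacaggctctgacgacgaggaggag
Per the files this probe starts at base 876 of its transcript. The low-RFI pigs had a lowest level of 0.90, a median of 1.67 and a highest of 3.08, against 0.83, 1.88 and 2.68 in high-RFI pigs. The lines overlapped almost entirely, with means of 1.71 ± 0.75 in low-RFI and 1.84 ± 0.60 in high-RFI pigs (SD, n = 8 each). The difference was -0.13 (SE 0.312, limma adjusted p = 0.998), with a 95% interval of -0.79 to 0.53. Its within-line SD was 0.679, and 92.2% of tested probes had a smaller one. On slides 1 to 4 the difference was 0.82, -0.45, -0.22 and -0.66, so its sign was not the same on all slides.

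ODC1 was also compared between the runs of sample numbers, a comparison added after the data had been seen, and was higher in run 1. ODC1 averaged 2.23 ± 0.47 in the 8 pigs of run 1 and 1.32 ± 0.48 in the 8 pigs of run 2 (SD), a difference of 0.92 (SE 0.227) with line as a covariate and a limma adjusted p of 0.0494. Between the runs 1.93% of all tested probes were called, and ODC1 was the only one of the 20 tested member probes. The run 1 minus run 2 difference was 1.18 in low-RFI pigs and 0.65 in high-RFI pigs. The call was lost without low-RFI pig 2, at a difference of 0.78 and an adjusted p of 0.0784, and also with slide as a block (adjusted p = 0.0699) and after normexp correction (adjusted p = 0.0881). SAT1 probe A_72_P565419, at -0.42 (SE 0.164, limma adjusted p = 0.136), was the only other member probe with an unadjusted p under 0.05, against 25.3% of all tested probes.

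The pig with the lowest OAZ3 had the highest ODC1. Low-RFI pig 2 was at -3.94 for OAZ3 and at 3.08 for ODC1, and low-RFI pigs 6 and 8, with high OAZ3, were at 0.90 and 1.10 for ODC1. Low-RFI pig 7, with low OAZ3, was nevertheless at 0.96 for ODC1, and among high-RFI pigs, all with high OAZ3, ODC1 covered 0.83 to 2.68. Low-RFI pig 2 was in run 1 of the sample numbers, and low-RFI pigs 6, 7 and 8 were in run 2. The low-RFI pigs of run 2 had ODC1 levels of 0.90 to 1.52, against 1.82 to 3.08 in those of run 1. Whether ODC1 followed OAZ3 apart from the runs was not tested. Because OAZ3 fell into separate clusters within the low-RFI line, its correlations with the other members were not tested and are not given. The correlations given above for other probes and genes are descriptions under the same limit.

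**Figure D3:**
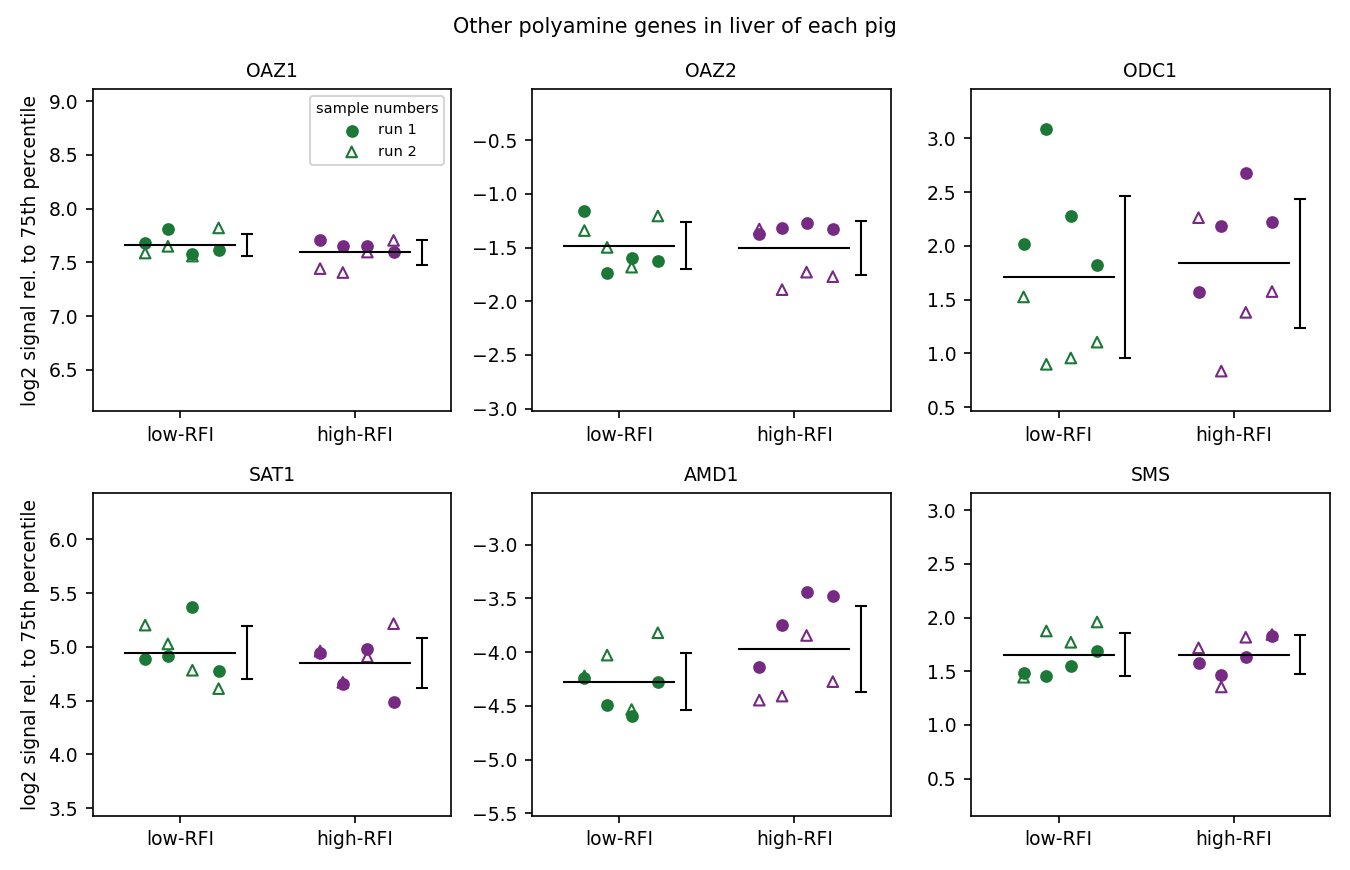
Level of OAZ1, OAZ2, ODC1, SAT1, AMD1 and SMS in each pig on the brightest tested probe of each gene, as log2 signal relative to the array's 75th percentile (y axis; every panel spans the same width in log2 units), for 8 low-RFI pigs (green, left) and 8 high-RFI pigs (purple, right). Filled circles are pigs of run 1 and open triangles pigs of run 2 of the sample numbers, lines are line means and bars are ± SD. The lines overlap in every panel, and in the ODC1 panel the pigs of run 1 average 2.23 and those of run 2 average 1.32.

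SAT1, whose enzyme acetylates spermidine and spermine, gave nearly the same picture on all 7 of its probes. On A_72_P077626 the low-RFI pigs had a lowest level of 4.61, a median of 4.90 and a highest of 5.37, against 4.49, 4.93 and 5.22 in high-RFI pigs. The lines overlapped, and the difference was 0.09 (SE 0.125, limma adjusted p = 0.985, 95% interval -0.17 to 0.36). The 7 differences ran from 0.04 to 0.10, and after normexp correction those of A_72_P633056 and A_72_P565419 were -0.02 each. Low-RFI pig 3 was the highest of the low-RFI pigs on every SAT1 probe except A_72_P565419. Of the 7 probes, A_72_P584277, A_72_P600768, A_72_P633056 and A_72_P661012 share 35 to 45 bases with one another.

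AMD1 and SMS, which act in the synthesis of spermidine and spermine, did not pass the test either. The AMD1 probe A_72_P397058 was dim, with 14.2 to 27.9 intensity units in low-RFI pigs and 15.1 to 40.8 in high-RFI pigs, though well above background on all arrays. Its levels had a lowest value of -4.60, a median of -4.26 and a highest of -3.82 in low-RFI pigs, against -4.45, -3.99 and -3.45 in high-RFI pigs. The lines overlapped with 3 low-RFI pigs below the lowest high-RFI pig, and the difference of -0.30 (SE 0.166, limma adjusted p = 0.963, 95% interval -0.65 to 0.04) changed to 0.11 after normexp correction. A further probe, A_72_P342493, which the files describe as hamster S-adenosylmethionine decarboxylase and which falls outside the symbol rule, differed by 0.09 (SE 0.196).

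SMS was the member with the smallest difference on its main probe. On A_72_P465420 the low-RFI pigs had a lowest level of 1.44, a median of 1.62 and a highest of 1.96, against 1.35, 1.67 and 1.84 in high-RFI pigs. The means were 1.65 ± 0.20 in low-RFI and 1.65 ± 0.18 in high-RFI pigs (SD, n = 8 each), with a difference of 0.00016 (SE 0.107, limma adjusted p = 0.9997) and a 95% interval of -0.23 to 0.23. The second SMS probe, A_72_P389378, differed by -0.08 (SE 0.119, limma adjusted p = 0.994). The third, A_72_P704396, was well above background in only 4 low-RFI and 3 high-RFI pigs and was not tested.

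The wider polyamine pathway showed no called gene between the lines. Of 41 further genes listed for ornithine supply, antizyme inhibitors, polyamine oxidation, the methionine cycle, hypusine formation, transport and transcription of ODC1, 19 had a named probe and 18 were tested. Of these 18, 0 were called in either direction (0% of the 4426 named genes tested were), and 1 had an unadjusted p under 0.05, against 5.06% of named genes. Of the 18, 10 were higher and 8 lower in low-RFI, with a median difference of 0.03, against 54.6% higher and a median of 0.02 over named genes. The 4 hypusine genes had no named probe.

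The largest difference in that list was in SLC7A2, a carrier of arginine, lysine and ornithine that liver expresses strongly. SLC7A2 had a lowest level of 2.78 and a highest of 4.31 in low-RFI pigs, against 1.96 and 3.15 in high-RFI pigs, with means of 3.35 ± 0.51 and 2.57 ± 0.44 (SD, n = 8 each). The lines overlapped between 2.78 and 3.15, and the difference was 0.78 (SE 0.224, limma adjusted p = 0.493). The related carrier SLC7A1 had -0.28 (SE 0.144, limma adjusted p = 0.945) in the other direction. Next by p came ALDH9A1, which oxidises aminoaldehydes made from polyamines, at 0.16 (SE 0.102), and MYC, a transcription factor that acts on ODC1, at 0.42 (SE 0.427). On the lower side SAT2, a relative of SAT1, had -0.20 (SE 0.287). The adjusted p of these 3 was 0.977, 0.979 and 0.986 in limma.

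Genes that supply ornithine or counteract the antizymes did not pass the test. The antizyme inhibitors AZIN1 and AZIN2, which bind antizymes and free ornithine decarboxylase, had differences of 0.15 (SE 0.190) and 0.11 (SE 0.200), and the 6 AZIN1 probes ran from -0.15 to 0.21. Arginase ARG1, which makes ornithine from arginine in the urea cycle, averaged 5.78 ± 0.72 in low-RFI and 5.84 ± 0.61 in high-RFI pigs on its main probe (SD, n = 8 each). The differences of its 5 tested probes ran from -0.52 to -0.06, the main probe being the one nearest to no difference. The mitochondrial arginase ARG2 spread most in the list, from -1.95 to 2.81 in low-RFI pigs and from -1.22 to 1.28 in high-RFI pigs, with a difference of -0.09 (SE 0.627). OAT and OTC, which use ornithine for glutamate and citrulline synthesis, differed by -0.02 (SE 0.330) and 0.10 (SE 0.153).

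**Figure D4:**
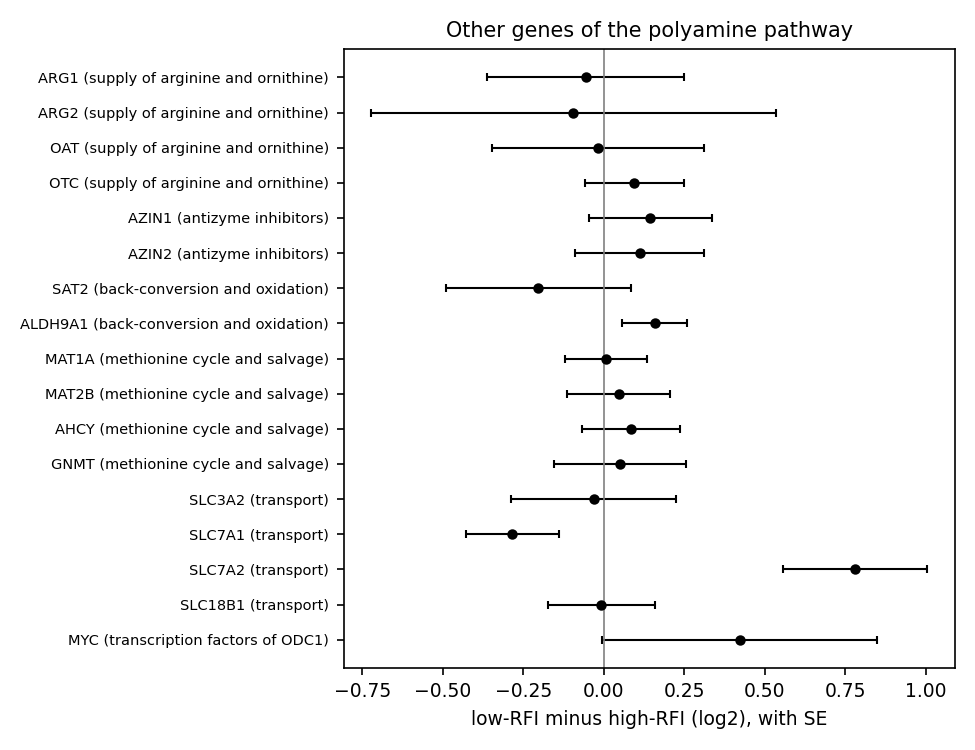
Difference between the lines, low-RFI minus high-RFI, in log2 units (x axis) for the tested genes of the wider polyamine pathway named on the y axis with the role of each. Points are differences of line means of each gene's brightest tested probe and bars are ± SE from limma (n = 8 pigs per line). SLC7A2, at 0.78, lies farthest from 0, and none of the genes drawn passed the threshold.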

How the data were processed

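Total RNA from liver of 16 pigs, 8 of each line, was hybridised to 1-colour Agilent arrays, 1 array per pig. Per the file headers, Agilent Feature Extraction 10.7.3.1 (protocol GE1_107_Sep09) read the scans, and the processed signal is a background-subtracted intensity that is not normalised between arrays. The authors' deposited table holds log2 values of 27938 spots, each equal to the log2 processed signal minus the array's median over those spots (largest difference 4.5e-08), and was used as an alternative. The submitters' processing notes name R 2.10.0.

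From the processed signal, 183 outlier spots were dropped, each array was centred on the 75th percentile of its log2 signal, and spots of a probe were averaged. A probe was tested (30099 of 43603) if 8 or more arrays showed it well above background, and 13504 were too dim. Exactly 1 symbol, other than a placeholder beginning with LOC, was carried by 11998 probes. The other 31605 had none, several or only such a placeholder. Of the 21 member probes, 16 carried their symbol as the name in the files. The other 5 were named through RefSeq, that of ODC1 by its transcript and those of AMD1 and SMS by gene numbers. Lines were compared in R 4.3.3 with limma 3.58.1, p-values were adjusted by Benjamini-Hochberg across the tested probes (threshold 0.05), and the fit was tested on simulated data. Intervals are 95% from the same fit, and the median SE was 0.16. Nothing states whether the pigs were littermates, and the number of arrays limits the precision.

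Members, lists and comparisons were chosen with earlier results of these data known. A gene's main probe was the one with the highest mean level among those tested. The text names all members, the 3 pathway genes with the smallest p per direction where none is called, the 5 genes most like and most unlike OAZ3, and its neighbours, except 1 pathway gene that is not reported here and not drawn. Other pathway genes, the germ cell markers and the 3 further probes were added after their values were seen. Pigs of the same number in the 2 lines were not taken as pairs in the main fit. The correlation of their deviations was nevertheless positive, 0.05 to 0.40, and over 0.1 in 6 of 8 pairs. With the number as a block, 2399 tested probes had an unadjusted p under 0.05 in limma, against 1640 in the main fit. Alternatives were normexp (offset 50), quantile, median and cyclic loess scaling, the authors' table, other filters, slides, sample-number runs, array quality and leaving out each pig. Figures used matplotlib 3.10.9 in Python 3.11.15.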

Additional observations from a re-analysis of the deposited data

Results flagged for a closer look

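Among 40 sets of 8 pigs, 1 for each line and tested member probe, the pig at 1 end stood apart from the rest by Dixon's test in 2, and chance alone gives about 1 in 20. SMS on A_72_P389378 was highest in low-RFI pig 8, at -0.44, with the next low-RFI pig at -0.85. OAZ2 on the dim A_72_P375978 was lowest in high-RFI pig 2, at -6.63, with the next high-RFI pig at -5.43.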

How the results depend on the processing

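Member probes called stayed at 0 and pathway genes called at 0 under all 21 other settings and without each pig in turn. Over all tested probes the count, 3 in the fit reported, was 1 with the filter on all 16 arrays and in run 1 alone, 7 with array weights, and 0 on slides 1, 3 and 4 alone, in run 2 alone, with array noise as a covariate and without the arrays marked for noise. It was 2 to 5 when each pig was left out, with 5 without low-RFI pig 2 or high-RFI pig 4. The OAZ3 difference kept its sign in all settings, from -3.19 on slide 1 to -1.13 on slide 3, and from -2.39 to -1.74 without each pig. OAZ3 was chosen for this difference in these same pigs, so the kept sign is a description and not a test. With the replicate number as a block, 4 probes were called and the OAZ3 difference was -2.05 (SE 0.451); this block changed no call of a member. Of 8 pigs per line, 5 correlated best with their own number.

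Small differences changed sign. AMD1 was 0.11 after normexp and 0.093 in run 2, against -0.70 (SE 0.179) in run 1. SMS was -0.063 after normexp, -0.019 after quantile scaling, -0.012 after cyclic loess, -0.0018 in the authors' table, -0.13 and -0.11 on slides 2 and 3, -0.19 with array noise, -0.13 without the marked arrays, -0.079 in run 1 and -0.044 to 0.030 without each pig. OAZ2 was -0.078 and -0.021 on slides 1 and 3, -0.045 with array weights, -0.021 without the marked arrays, -0.21 in run 1 and -0.036 to 0.056 without each pig. ODC1 was 0.82 on slide 1, 0.10 with array noise and 0.13 in run 1, and SAT1 was -0.41 on slide 4 and -0.033 in run 2. The cause was not tested. The ODC1 difference between the runs, 0.92, was 0.88, 0.99 and 0.87 and still called after quantile, median and cyclic loess scaling. It was 0.78 without low-RFI pig 2, 1.18 in low-RFI alone, 0.65 in high-RFI alone and 0.86 after normexp, none of them called, and it was not called with slide as a block either. The planned tests of correlation between OAZ3 and the other members were not run.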
